A study of Homo sapiens with 4 samples.

Results

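Inflammatory interleukins and chemokines were followed in the human glioblastoma line U251, an established cell line, with and without knockdown of the arginine methyltransferase PRMT3. The genes were chosen by name: IL1A, IL1B, IL6, IL11, LIF, CXCL8, CXCL1, CXCL2, CXCL3 and CCL2. Of these 10 names, 9 have a row in the deposited table of 15575 genes, and CXCL1 was not analysed here. Ctrl cells carried a lentiviral control shRNA (pGreen in the labels) and PRMT3-KD cells a lentiviral shRNA against PRMT3, and both groups were profiled by RNA-seq 72 h later, with 2 libraries per group. All 4 libraries therefore come from virus-transduced cells, and no library without virus was analysed here. The hairpin used for these libraries is not named in the sources, and nothing says that the libraries of a group came from separate cultures, so p-values measure only the spread between these libraries.

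Total counts ranged from 24804250 to 29756313 per library. PRMT3 (ENSG00000185238), the target, had 535 counts in each Ctrl library and 77 and 45 counts in PRMT3-KD libraries 1 and 2. Over all genes, the spread within a pair, as chi-square over its degrees of freedom (near 1 for counting error alone), was 1.42 for Ctrl and 63.6 for PRMT3-KD. The spread in the tests below therefore comes almost wholly from the PRMT3-KD pair, and the PRMT3-KD libraries are given apart throughout.

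These genes encode secreted signals of inflammation. IL1A and IL1B are the interleukin-1 ligands, which act through IL1R1 and its partner IL1RAP to activate NF-κB. IL6, IL11 and LIF are cytokines of the IL-6 family, which share the receptor chain IL6ST (gp130) and signal through JAK kinases to STAT3. CXCL8, CXCL1, CXCL2 and CXCL3 are neutrophil-attracting chemokines that lie close together on chromosome 4, and CCL2 attracts monocytes. Their mRNAs are short-lived, and their promoters are classical targets of NF-κB, AP-1 and C/EBP factors. In glioma, such factors are made by tumor cells and are known to draw in myeloid cells.

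Promoter sequence was available in RefSeq (build GRCh38.p14, 250 bases before to 50 bases after the gene's start) for 8 of the 10 genes, and not for LIF and CCL2. It is shown here because the letters of the NF-κB and AP-1 motifs divide the genes into groups to which the expression values below can be compared. An NF-κB motif, GGNNTTTCC on either strand, lies in the promoters of IL6, CXCL8, CXCL1, CXCL2 and CXCL3, whereas 6.26% of 35116 promoters of the same length hold it. In the windows below, written 5′ to 3′ on the strand of the gene, capitals mark the motif.
IL6 at chr7:22727118-22727147: atcaaatgtgGGATTTTCCcatgagtctca
CXCL8 at chr4:73740468-73740497: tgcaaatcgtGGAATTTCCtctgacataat
CXCL2 at chr4:74099253-74099282, minus strand: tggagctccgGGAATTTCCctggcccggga
CXCL3 at chr4:74038748-74038777, minus strand: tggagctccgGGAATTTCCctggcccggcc
The first base of the motif lies 72, 91, 77 and 78 bases before the start of IL6, CXCL8, CXCL2 and CXCL3. CXCL1, CXCL2 and CXCL3 each have a second match, GGGCTTTCC, whose first base lies 53 bases before the start.

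The palindromic AP-1 motif TGANTCA occurs in the promoters of IL1A, IL11 and CXCL8, against 7.71% of all promoters. Capitals again mark the motif.
IL1A at chr2:112784487-112784516, minus strand: gcgaagaagacTGACTCAggcttaagctgc
IL11 at chr19:55370541-55370570, minus strand: ggcagggagggTGAGTCAggatgtgtcagg
CXCL8 at chr4:73740421-73740450: aggaagtgtgaTGACTCAggtttgccctga
IL1A has 2 listed starts, and the match shown begins 105 or 12 bases before them. A second match in IL1A, TGAGTCA, begins 55 bases before one of these starts and lies after the other. The match of IL11 begins 96 bases before the start and that of CXCL8 137 bases before it. CXCL8 is the only one of the 8 genes with a match to both motifs. The C/EBP letters TTGCNNAA, on either strand, occur in IL1B, IL6 and CXCL2 and in 10.5% of all promoters, and the TATA box letters TATAAA, on either strand, in IL1A and CXCL8 and in 11.5% of all promoters. None of these matches overlap another listed here, and a match is a run of letters, not a measured binding site.

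Levels of different genes were compared per length, as CPM (counts relative to library size after TMM normalization) per kilobase of annotated exon. This length counts every base that lies in an exon of any annotated transcript. For CCL2 (1935 bases) and CXCL3 (2219 bases) it covers the whole gene, so their values per kilobase can be too low. The order of genes given here and below therefore depends on the annotation. In Ctrl cells CXCL8 was highest, at 59.3 ± 1.83 (SD, n = 2 libraries here and below), followed by LIF at 32.1 ± 1.56, CCL2 at 19.6 ± 1.26. IL11 came next, at 14.8 and 15.3 CPM per kilobase in the Ctrl libraries. IL6, CXCL2 and CXCL3 formed a lower tier at 3.14 ± 0.245, 2.10 ± 0.209 and 1.49 ± 0.00385 CPM per kilobase. The interleukin-1 ligands were lowest, IL1B at 0.572 ± 0.0907 and IL1A at 0.153 ± 0.0389. No neighbours in this Ctrl order had overlapping values. U251 cells thus carried the mRNAs of CXCL8, LIF, CCL2 and IL11 at levels above that of PRMT3 itself, at 3.53 ± 0.0182 CPM per kilobase.

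The order was different in the PRMT3-KD libraries. In library 1 CXCL8 was still first, at 41.5 CPM per kilobase, but IL11 at 29.5 stood next to LIF at 30.4, and CCL2 was at 6.37. In library 2 IL11 was first at 21.1, followed by LIF at 17.4, CCL2 at 11.1 and CXCL8 at 10.6 CPM per kilobase. IL1A was below IL1B in each Ctrl library and above it in each PRMT3-KD library, at 0.917 against 0.340 in library 1 and 0.750 against 0.655 in library 2. In library 2, however, IL1A had fewer counts than IL1B, 43 against 56. Their 95% counting intervals there overlapped, at 1.10 to 2.04 and 1.49 to 2.56 CPM. The order in library 2 thus rests on the exon lengths. In library 2 IL1A, IL1B and CXCL3 (0.635) were close together, and CXCL2 was last at 0.403.

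**Figure D1:**
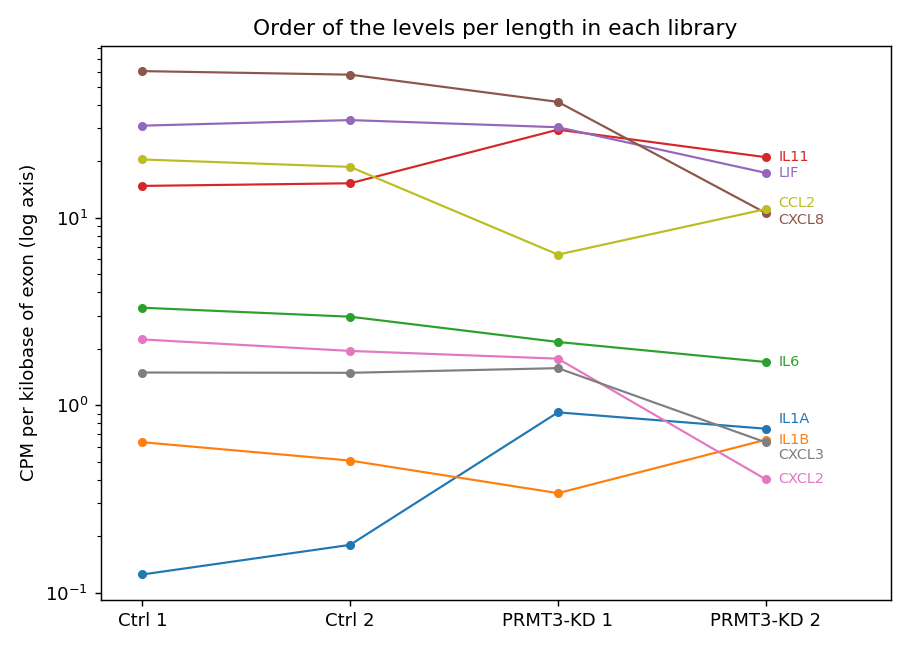
CPM per kilobase of exon (log axis) of the 9 genes in each of the 4 libraries; a line joins the values of one gene and is only a guide. IL11 lies at 14.8 and 15.3 in Ctrl and at 29.5 and 21.1 in the PRMT3-KD libraries, and CXCL8, first in Ctrl, is at 10.6 in PRMT3-KD library 2.

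Summed over the 9 genes, the level was 379 and 377 CPM in the Ctrl libraries, 335 CPM in PRMT3-KD library 1 and 185 CPM in library 2. CXCL8 and LIF together made up 73.0% and 74.0% of this sum in Ctrl, 67.3% in PRMT3-KD library 1 and 51.1% in library 2. IL11 made up 10.5% and 10.9% in Ctrl and 23.6% and 30.4% in PRMT3-KD libraries 1 and 2. CXCL8 alone made up 41.4% and 39.9% in Ctrl and 32.1% and 14.8% in PRMT3-KD libraries 1 and 2, while LIF made up 31.7% and 34.1% in Ctrl and 35.2% and 36.3% in PRMT3-KD. The share of CXCL8 was thus lower, and those of LIF and IL11 higher, in both PRMT3-KD libraries.

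Of the 9 genes, 1 (IL1A) was higher and 0 were lower in PRMT3-KD cells by edgeR's quasi-likelihood test across 13172 genes, where a call needed an adjusted p under 0.05 and more than a 1.5-fold change. Over all genes tested, 4.97% passed as higher and 5.97% as lower. IL1A passed the filter on low counts only through the PRMT3-KD libraries, so no conclusion about the 9 genes is drawn from this count. At an unadjusted p under 0.05, 2 of the 9 were higher (IL1A, IL11) and 2 lower (IL6, CCL2), against 19.1% and 18.5% of all genes. DESeq2, the tool of the study's methods, passed IL1A and IL11 as higher and IL6 and CCL2 as lower, with 6.55% and 7.75% of all genes passing as higher and lower. limma-voom with group weights passed IL1A and IL11 as higher and CCL2 and CXCL8 as lower, against 5.98% and 6.85%. On library totals only, without TMM, edgeR passed IL1A as higher and CCL2 as lower, against 3.96% and 5.72%, and a fit with the replicate number as a term passed 5.03% and 6.08% of all genes. The CPM ranges of the groups did not overlap for 2 genes with higher values in PRMT3-KD (IL1A, IL11) and 5 with lower values (IL6, LIF, CXCL8, CXCL2, CCL2), against 33.3% and 33.8% of all genes. The median log2 fold change of the 9 genes was -0.44, and that of all genes tested was 0.0055. For a single gene, the smallest p of an exact two-sided permutation test is 0.333 with 2 libraries a group. Since these are bulk libraries, fewer cells with an mRNA and less of it per cell cannot be told apart.

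IL1A (ENSG00000115008, GRCh37 chromosome 2, 113531502 to 113542070, minus strand), the alarmin form of interleukin-1, was the only one of the 9 genes past the threshold in edgeR. The Ctrl libraries held 7 and 10 of its reads and PRMT3-KD libraries 1 and 2 held 47 and 43, or 0.253, 0.364, 1.85 and 1.51 CPM. Both PRMT3-KD values were above both Ctrl values, and their counting intervals did not meet, with the highest Ctrl bound at 0.669 CPM and the lowest PRMT3-KD bound at 1.10 CPM. IL1A rose by 2.43 on the log2 scale (standard error 0.345, 5.39-fold, adjusted p = 0.0233, edgeR). It passed the filter on low counts only through the PRMT3-KD libraries. With every gene that had at least 1 count kept, its adjusted p was 0.0241 in edgeR. It was not tested where at least 10 counts were required in every library. Over the 7 alternatives that kept all 4 libraries and gave it a value it passed in 7, with adjusted p from 0.00426 to 0.0298. These fits use the same 4 libraries, so they add no separate support. Without Ctrl library 1 or Ctrl library 2 its adjusted p was 0.258 or 0.1995, at log2 fold changes of 2.19 and 2.71. In those fits 0 genes of the whole table passed in edgeR, while 825 and 838 were higher and 1017 and 1030 lower at an unadjusted p under 0.05, IL1A among the higher ones in both.

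IL1B (ENSG00000125538, chromosome 2, 113587328 to 113594393, minus strand), the form that is cut by CASP1 before release, lies next to IL1A. Its counts were 53 and 42 in Ctrl, then 26 and 56 in PRMT3-KD libraries 1 and 2, or 1.91, 1.53, 1.02 and 1.97 CPM. The groups overlapped, with the lowest and the highest of the 4 values both in PRMT3-KD libraries. edgeR gave a log2 fold change of -0.19 with a standard error of 0.396 (adjusted p = 0.757), which became 0.20 without PRMT3-KD library 1. The interleukin-1 ligands, neighbours on the chromosome, thus gave different readings, although the difference between their changes was not tested.

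IL6 (ENSG00000136244, chromosome 7, 22765503 to 22771621), the founding cytokine of its family, had 14.3 and 12.8 CPM in Ctrl and 9.41 and 7.36 CPM in PRMT3-KD libraries 1 and 2. All PRMT3-KD values were below all Ctrl values. The log2 fold change was -0.70 (standard error 0.171) and did not pass in edgeR (adjusted p = 0.0593), while it passed in DESeq2 (adjusted p = 0.0292). Exons of IL6 overlap those of IL6-AS1 and STEAP1B on the other strand, and whether the counting used strand is not stated, so reads of these genes cannot be told apart.

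IL11 (ENSG00000095752, chromosome 19, 55875750 to 55881831, minus strand), a cytokine of stromal and tumor cells, had 39.6 and 40.9 CPM in Ctrl and 79.1 and 56.4 CPM in PRMT3-KD libraries 1 and 2. Both PRMT3-KD libraries were above both Ctrl libraries, library 1 by more. The log2 fold change was 0.75 (standard error 0.181, 1.68-fold) with an adjusted p of 0.0574 in edgeR, of 0.00282 in DESeq2 and of 0.0101 in limma-voom with group weights. Within the IL-6 family, the estimates for IL11 and IL6 thus had opposite signs in each PRMT3-KD library, at 0.97 and -0.53 in library 1 and 0.49 and -0.88 in library 2 on the log2 scale against the Ctrl mean.

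LIF (ENSG00000128342, chromosome 22, 30636442 to 30642748, minus strand), which is known for keeping stem cells undifferentiated, had 120 and 129 CPM in Ctrl and 118 and 67.2 CPM in PRMT3-KD libraries 1 and 2. PRMT3-KD library 1 was just under the lower Ctrl value and library 2 far below it. In edgeR the estimate was -0.43 on the log2 scale with a standard error of 0.279 (adjusted p = 0.330). Without PRMT3-KD library 1 the estimate was -0.88, and without library 2 it was -0.082. Its exons overlap those of LIF-AS1 and LIF-AS2 on the other strand.

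CXCL8 (ENSG00000169429, chromosome 4, 74606236 to 74609433), or interleukin-8, the main human neutrophil attractant, had 157 and 150 CPM in Ctrl and 107 and 27.5 CPM in PRMT3-KD libraries 1 and 2. The groups did not overlap, but the PRMT3-KD libraries were farther from each other than library 1 was from Ctrl. The estimate of edgeR was -1.19 on the log2 scale, with a standard error of 0.642 and an adjusted p of 0.252. It was -1.53 with an adjusted p of 0.0254 in limma-voom with group weights and -1.19 with 0.377 in DESeq2. Without PRMT3-KD library 1 the fold change was -2.48 and without library 2 it was -0.52, so 1 library set the size of the estimate.

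CXCL2 (ENSG00000081041, chromosome 4, 74962757 to 74964913, minus strand) and CXCL3 (ENSG00000163734, 74902306 to 74904524, minus strand) are near copies of CXCL1 that also attract neutrophils. CXCL2 counts were 87 and 75 in Ctrl, then 63 and 16 in PRMT3-KD libraries 1 and 2, or 3.14, 2.73, 2.48 and 0.563 CPM. CXCL3 counts were 92 and 91 in Ctrl, then 89 and 40 in PRMT3-KD libraries, or 3.32, 3.31, 3.50 and 1.41 CPM. In both genes PRMT3-KD library 1 was close to Ctrl, with overlapping counting intervals, and library 2 was lower. The log2 fold changes were -0.96 (standard error 0.678, adjusted p = 0.363, edgeR) for CXCL2 and -0.44 (standard error 0.463, adjusted p = 0.537) for CXCL3. Without PRMT3-KD library 2 the estimate was -0.25 for CXCL2 and 0.076 for CXCL3, and without library 1 it was -2.37 and -1.23. Of the distinct 50-base words in their annotated transcripts, 13.4% of CXCL2 and 6.01% of CXCL3 occur also in another of CXCL1, CXCL2 and CXCL3. Reads can therefore be split between these genes. These are shares of words, not of reads, and how far the counts are affected was not measured.

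CCL2 (ENSG00000108691, chromosome 17, 32582293 to 32584227), the monocyte attractant MCP-1, had 39.6 and 36.2 CPM in Ctrl and 12.3 and 21.5 CPM in PRMT3-KD libraries 1 and 2. The groups did not overlap, and here it was library 1 that lay farther from Ctrl. The log2 fold change was -1.16 (standard error 0.282), or 2.23-fold less, with an adjusted p of 0.0586 in edgeR. It passed in DESeq2 (adjusted p = 0.000630), in limma-voom with group weights (adjusted p = 0.0129) and in edgeR on library totals only (adjusted p = 0.0483). Its direction was the same under every alternative run.

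The PRMT3-KD libraries differed from each other in a gene-specific way. On the log2 scale (with 0.5 CPM added), library 2 minus library 1 was -1.95 for CXCL8, -1.49 for CXCL2 and -1.07 for CXCL3, where the median absolute difference over all genes tested was 0.222. Only 0.251%, 0.934% and 2.74% of all genes tested had an absolute difference at least as large as those of CXCL8, CXCL2 and CXCL3. These 3 genes are chromosome 4 neighbours and hold the NF-κB letters shown above, as does IL6, whose difference was -0.33, a size that 33.2% of all genes reached or exceeded. LIF differed by -0.80, IL11 by -0.48 and IL1A by -0.22, sizes that 6.32%, 18.8% and 49.8% of all genes reached or exceeded. CCL2 and IL1B went the other way, by 0.78 and 0.70, which 6.83% and 8.81% of all genes reached or exceeded. Large differences were thus not limited to the chromosome 4 genes. Between the Ctrl libraries the largest absolute difference among the 9 genes was 0.251, that of IL1B. PRMT3 itself was lower in library 2, at 1.58 CPM against 3.03 CPM, and its part in these differences was not tested.

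**Figure D2:**
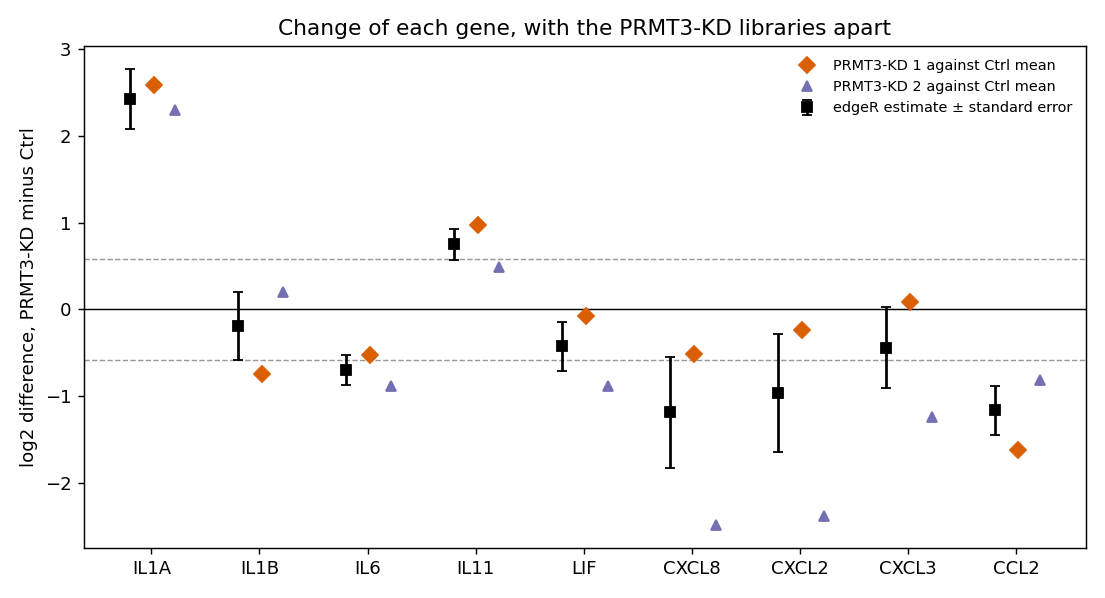
Change of each gene on the log2 scale, PRMT3-KD minus Ctrl: black squares are edgeR estimates with their standard errors, orange diamonds and purple triangles the PRMT3-KD libraries 1 and 2 against the Ctrl mean, and dashed lines a 1.5-fold change. IL1A is near 2.43 in both libraries, whereas CXCL8 is at -0.51 in library 1 and -2.48 in library 2.

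The receptors of these ligands were only partly measured. IL1RAP, the partner chain of the interleukin-1 receptor, was at 42.6 and 42.8 CPM in Ctrl and 24.6 and 21.8 CPM in PRMT3-KD libraries, with no overlap. It fell by 0.88 on the log2 scale (standard error 0.0998, adjusted p = 0.0192, edgeR). The receptor chain IL1R1 was at 8.97 ± 0.174 CPM in Ctrl and 5.75 and 10.9 CPM in PRMT3-KD libraries (log2 fold change -0.10, adjusted p = 0.853), and the decoy receptor IL1R2 had at most 2 counts in any library. IL6R, the IL-6 binding chain, was at 4.02 ± 0.0719 CPM in Ctrl and 7.36 and 6.41 CPM in PRMT3-KD libraries. It rose by 0.77 (standard error 0.166, adjusted p = 0.0462, edgeR), but its adjusted p was 0.0520 in limma-voom with group weights and 0.0704 on library totals. The shared chain IL6ST (221 ± 2.86 CPM in Ctrl) had a log2 fold change of -0.25 (adjusted p = 0.185), and LIFR one of -0.43 with an adjusted p of 0.0396, under 1.5-fold. IL1RN, IL11RA, CXCR1, CXCR2, CCR2 and ACKR1 have no row and were not analysed here.

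Beyond the ligands and their receptors, 8 lists of related genes, written with earlier results of these data known, held 161 genes. Of these, 129 have a row, 108 were tested, 9 (8.33%) passed as higher and 4 (3.70%) as lower, beside 4.97% and 5.97% of all genes tested. Their median log2 fold change was 0.16, beside 0.0055 over all genes. Without Ctrl library 1 or Ctrl library 2, 0 of them passed. The counts at an unadjusted p below stand beside 19.1% of all genes as higher and 18.5% as lower. Of the IL-1 system, 10 of 17 genes were tested, with 1 higher (IL18) and 1 lower (IL1RAP). IL18, an interleukin-1 relative that is also cut by CASP1, rose by 0.81 (adjusted p = 0.0196, edgeR), from 32.5 ± 1.70 CPM to 59.8 and 54.3 CPM in PRMT3-KD libraries. Of the IL-6 family receptors and relay, 15 of 20 were tested, with 2 higher (IL6R, STAT3) and 0 lower, while 3 were higher and 3 lower at an unadjusted p under 0.05 in edgeR. DESeq2 and limma-voom also passed 0 as lower. STAT3, the transcription factor downstream of gp130, rose by 0.76 (adjusted p = 0.0201, edgeR), from 211 ± 3.42 CPM to 333 and 380 CPM. SOCS3, which STAT3 is known to induce, had a log2 fold change of -0.12 (adjusted p = 0.501, edgeR). Against the Ctrl mean SOCS3 was at 0.0044 in PRMT3-KD library 1 and -0.26 in library 2. STAT3 activity was not tested.

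Of 32 other cytokines and chemokines, 15 were tested, with 1 higher (CSF1) and 1 lower (CX3CL1). Their median log2 fold change was 0.69, but 3 of the 15 (IL24, IL34, TSLP) did not reach the filter on low counts in both Ctrl libraries, so this median does not describe the whole list. CSF1, the growth factor of macrophages, rose by 1.17 (standard error 0.145, adjusted p = 0.0202, edgeR), from 101 ± 0.121 CPM in Ctrl to 197 and 256 CPM in PRMT3-KD libraries. CX3CL1, a membrane-bound chemokine, fell by 0.63 on the log2 scale (adjusted p = 0.0306), from 20.8 ± 0.226 CPM to 12.8 and 14.1 CPM. CSF1 and CCL2, which both act on cells of the monocyte line, thus had estimates of opposite sign. Of 20 chemokine receptors, 7 have a row, 5 were tested and 0 passed, as in DESeq2 and limma-voom. At an unadjusted p under 0.05 in edgeR, 1 was higher (ACKR2) and 1 lower (CXCR4). CCR1, CCR10 and ACKR2 did not reach the filter on low counts in both Ctrl libraries, and CXCR4 did not in both PRMT3-KD libraries. ACKR2 and CXCR4 were thus tested only through the group where they are high, so no conclusion is drawn from these 2 counts.

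All 22 genes of the NF-κB subunits and regulators were tested, with 1 higher, 0 lower and a median log2 fold change of 0.067. At an unadjusted p under 0.05 edgeR had 3 higher and 3 lower, and DESeq2 and limma-voom passed 0 as lower. CYLD, a deubiquitinase that restrains NF-κB, was the 1 that rose, by 0.73 (adjusted p = 0.0365), from 63.1 ± 4.19 CPM to 117 and 93.0 CPM, with an adjusted p of 0.0607 on library totals. RELA, the main activating subunit, had a log2 fold change of -0.50 with an adjusted p of 0.0321, under 1.5-fold. The estimate for the subunit NFKB1 was 0.017 (adjusted p = 0.931). For the feedback inhibitors NFKBIA and TNFAIP3, which NF-κB induces, it was 0.044 (adjusted p = 0.887) and -0.14 (adjusted p = 0.712). These estimates average PRMT3-KD libraries 1 and 2 that lay on either side of the Ctrl mean. On the log2 scale they were at 0.14 and -0.11 for NFKB1, -0.24 and 0.28 for NFKBIA, and 0.17 and -0.52 for TNFAIP3. Of 20 other NF-κB target genes, 12 were tested and 0 passed in either direction. Their median log2 fold change was 0.45, beside 0.0055 over all genes tested, and 12 of 12 estimates were above 0. This holds for the estimates over both PRMT3-KD libraries, not for each library. Against the Ctrl mean, IER3 was at -0.30 in library 1 and PTX3 at -1.03 in library 2, while the others were above it in both. MMP3 was at 4.68 in library 1 and 0.16 in library 2. At an unadjusted p under 0.05 in edgeR, 5 (41.7%) were higher and 0 lower, beside 19.1% and 18.5% of all genes. DESeq2 and limma-voom each passed 1 of them, BIRC3, an inhibitor of cell death, as higher and 0 as lower. The list leaves out NFKBIA and TNFAIP3, given above. It also leaves out the 9 interleukins and chemokines, of which 7 had estimates below 0 and 2 above. The 12 of 12 thus does not describe all NF-κB targets.

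Of the AP-1 and C/EBP factors, 13 of 14 were tested, with 2 higher and 1 lower. FOSB rose by 2.08 (standard error 0.166, adjusted p = 0.0142, edgeR), from 2.50 ± 0.269 CPM to 10.9 and 10.3 CPM. FOS rose by 3.42 (adjusted p = 0.0495), with 3.50 CPM in PRMT3-KD library 1 and 13.2 CPM in library 2, against 0.779 ± 0.0296 CPM in Ctrl, and its adjusted p was 0.0503 with DESeq2's size factors in edgeR. Without PRMT3-KD library 2 the estimate for FOS was 2.16, and without library 1 it was 4.08. CEBPG fell by 1.15 (log2, adjusted p = 0.0374), to 39.5 and 25.8 CPM from 72.4 ± 0.959 CPM. JUN, the classical partner of FOS, had a log2 fold change of -0.29 (adjusted p = 0.134, edgeR). FOSL1, an AP-1 subunit with higher levels than FOS and FOSB, was at 190 ± 0.697 CPM in Ctrl. It was at 140 and 60.1 CPM in PRMT3-KD libraries 1 and 2 (log2 fold change -0.93, adjusted p = 0.179, edgeR). DESeq2 and limma-voom passed FOS and FOSB as higher and CEBPG and FOSL1 as lower.

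All 16 factors that control the decay or stability of AU-rich mRNAs, a class to which these cytokine mRNAs belong, were tested, with 2 higher and 1 lower. At an unadjusted p under 0.05 in edgeR, 3 were higher and 7 (43.8%) lower, beside 19.1% and 18.5% of all genes. ZFP36 (tristetraprolin), which speeds the decay of such mRNAs, rose by 0.87 (adjusted p = 0.0481, edgeR), from 12.8 ± 0.399 CPM to 19.5 and 27.3 CPM. DUSP1, a phosphatase that turns off p38 MAP kinase, rose by 1.30 (adjusted p = 0.0283), from 41.6 ± 0.957 CPM to 82.2 and 122 CPM. ZFP36L2, a relative of ZFP36, fell by 0.68 on the log2 scale (adjusted p = 0.0211). KHSRP and HNRNPD, which bind AU-rich mRNAs and are known mostly for promoting their decay, had log2 fold changes of -0.57 (adjusted p = 0.0212, edgeR) and -0.53 (adjusted p = 0.0202), both under 1.5-fold. The 7 lower genes at an unadjusted p under 0.05 also include TIA1 (-0.31), PARN (-0.27), ELAVL1 (-0.26) and TIAL1 (-0.19). The list's median log2 fold change was -0.0102, with 7 genes above 0 and 9 below.

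The labelled cell type was checked against marker genes. VIM, NES, CD44, SOX2 and SOX9 were detected in all libraries, while OLIG2 has no row and AQP4 and CHI3L1 had at most 1 and 2 counts in any library. GFAP, the astrocyte filament, was at 363 and 392 counts in Ctrl, but at 32 and 153 in PRMT3-KD libraries 1 and 2 (log2 fold change -2.03, adjusted p = 0.0958), and SOX9 fell by 0.65 (log2, adjusted p = 0.0215, edgeR). Of 16 microglia and leukocyte markers, 6 have a row, their summed level was 30.4 and 31.8 CPM in Ctrl and 33.2 and 33.8 CPM in PRMT3-KD, and PTPRC (CD45) had at most 7 counts in any library. Most of this sum was CD68, at 24.0 and 25.6 CPM in Ctrl and 29.6 and 29.7 CPM in PRMT3-KD (log2 fold change 0.26, adjusted p = 0.114, edgeR). CSF1R, the receptor of CSF1, was at 5.27 and 5.42 CPM in Ctrl and 2.48 and 3.45 CPM in PRMT3-KD (log2 fold change -0.85, adjusted p = 0.0713), and CD14 had between 6 and 12 counts in the libraries (log2 fold change -0.89, adjusted p = 0.180). Of 7 endothelial markers, 4 have a row, with a summed level of 27.7 and 29.8 CPM in Ctrl and 19.8 and 38.3 CPM in PRMT3-KD libraries. KDR fell by 0.86 on the log2 scale (adjusted p = 0.0428, and 0.0596 on library totals), and CDH5 was at 140 and 146 counts in Ctrl, then 129 and 722 in PRMT3-KD. The part of these markers in the results was not tested.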

How the data were processed

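RNA of U251 cells was sequenced in 4 libraries, Ctrl 1 and 2 and PRMT3-KD 1 and 2, assigned from the sample titles. According to the methods and processing notes, reads were aligned to hg19 (GRCh37) with TopHat and counted with Cufflinks. Versions, annotation and strand settings are not given in the sources used here. The authors deposited whole-number read counts per gene, not normalized. Of 15576 entries, 1 duplicate was removed. The members and the gene lists were chosen with earlier results of these data known.

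The main test was the quasi-likelihood F test of edgeR 4.0.16 (R 4.3.3, functions glmQLFit and glmQLFTest) on Ctrl and PRMT3-KD libraries with TMM scaling. Low genes were dropped with filterByExpr, set to a count of 10 and a total of 15, and Benjamini-Hochberg adjustment ran over the 13172 genes left. The standard error of a change is its log2 size over the square root of F, and SDs are over 2 libraries. Few counts limit the precision of low genes, and exact 95% Poisson intervals cover counting error only. Alternatives were DESeq2 1.42.0, limma-voom (limma 3.58.1) with group-specific variance weights, other scalings and filters, no fold threshold, the replicate number as a term, and leaving out each library. Scripts were tested on simulated counts.

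Positions, exon lengths and overlaps came from GENCODE 44 on GRCh37, which holds 99.9% of the identifiers, and may differ from the annotation used for counting. Promoters were from RefSeq on GRCh38.p14. Motifs and 50-base words were searched with Python 3.11.15. The genes named were the members, PRMT3, receptors and antagonists of the members, NFKB1, RELA, NFKBIA, TNFAIP3, listed genes past the threshold (at most 4 per list) and cell markers. SOCS3, JUN, BIRC3, KHSRP, HNRNPD, IL24, IL34, TSLP, CCR1, CCR10, ACKR2, CXCR4, IER3, ELAVL1, TIA1, TIAL1 and PARN were chosen after their values were seen. So were the genes of the closing section.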

Additional observations from a re-analysis of the deposited data

How the results depend on the processing

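The number of the 9 genes past the threshold as higher was 1 and became 2 with DESeq2, limma-voom with group weights and the replicate block (IL1A and IL11 each time). It was 0 with at least 10 counts required in every library, where IL1A was not tested. As lower it was 0 and became 2 with DESeq2 (IL6, CCL2) and with limma-voom (CXCL8, CCL2), and 1 (CCL2) on library totals and with the replicate block. Leaving out 1 library at a time gave 0 to 2 as higher and 0 to 6 as lower, with 6 without PRMT3-KD library 1 (IL6, LIF, CXCL8, CXCL2, CXCL3, CCL2) and 1 without PRMT3-KD library 2 (CCL2). Of the listed pathway genes 13 passed, with 20 when no fold threshold was set and 0 to 33 when 1 library was left out (0 without either Ctrl library, 30 without PRMT3-KD library 1, 33 without library 2). With 1 library in a group, that library was assumed to vary like the other group. Without a PRMT3-KD library the spread thus came from the Ctrl pair alone, at 1.42 against 63.6 for the PRMT3-KD pair (chi-square over degrees of freedom). In those fits far more of all genes passed than in the main test. The counts with 1 library left out are therefore not specific to these genes, and no conclusion about the 9 genes or the listed pathway genes is drawn from them. IL1B was at 0.20 without PRMT3-KD library 1, a reversed sign, and at -0.75 without library 2, and CXCL3 was at 0.076 without PRMT3-KD library 2, also reversed, and at -1.23 without library 1. The cause of these changes was not tested.

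In the fit with the replicate block, adjusted p was 0.0428 for IL11, 0.0340 for CCL2, 0.0515 for CX3CL1 and 0.0800 for IL6R. Across genes, the deviations of libraries 1 and 2 correlated at 0.0222 between the groups. The Ctrl libraries differed by little more than counting error, so this value cannot show whether equal numbers were paired. No label ties equal numbers together, and the main test used no pairing. All 9 genes had the same direction in edgeR, DESeq2 and limma-voom and under the other scalings, filters and the block, where they were tested. Depth limits IL1A most, with 7 and 10 counts in Ctrl.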

Other observations

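Other secreted factors and 1 transcription factor also differed between the PRMT3-KD libraries, and were picked after their values were seen. MMP3, a matrix protease that interleukin-1 is known to induce, was at 31 and 30 counts in Ctrl, then 721 and 35 in PRMT3-KD libraries 1 and 2. CXCL14, a chemokine, was at 3468 and 3329 counts in Ctrl, then 2613 and 8345. CSF2, a growth factor of granulocytes and macrophages, was at 17 and 13 counts in Ctrl, then 55 and 6. PTX3, a secreted pattern recognition protein, was at 116 and 158 counts in Ctrl, then 300 and 69. MMP3, CSF2 and PTX3 were thus higher in PRMT3-KD library 1, and CXCL14 in library 2. FOSL1, an AP-1 subunit, was at 5249 and 5238 counts in Ctrl, then 3545 and 1706. None of these 5 genes passed the threshold in edgeR, with adjusted p from 0.156 for MMP3 to 0.662 for PTX3, while DESeq2 and limma-voom passed FOSL1 as lower.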
